A study of Homo sapiens with 4 samples.

Results

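Immediate early genes are the genes that a cell switches on within minutes of a growth signal or a stress, without new protein synthesis. Many of them encode transcription factors: the FOS and JUN proteins pair to form AP-1, the EGR proteins bind GC-rich sites, and the KLF proteins bind GC boxes and CACCC boxes. Others end the response, such as the DUSP phosphatases that switch off MAP kinases and the ZFP36 proteins that speed the decay of short-lived mRNAs. ETS factors are known to bind beside serum response factor (SRF) at the promoters of EGR and FOS genes, where they carry the signal from MAP kinases. The genes described here are 47 listed genes of these families, of 20037 protein-coding genes in the RefSeq table of GRCh38.p14. They were chosen by name, with earlier results of these data known. A ChIP-seq peak was counted for a gene where its summit lay in the gene's span or within 5 kb of it.

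The peaks are sites of SPIB, an ETS-family transcription factor of B cells and plasmacytoid dendritic cells, mapped in H1703, a long-established line of human lung squamous carcinoma cells. All cells overexpressed SPIB, and the chromatin was precipitated with the anti-FLAG M2 antibody. The groups were suspended cells (1 ChIP library and 1 input library) and attached cells (likewise 1 of each). The labels' treatment text gives 24 h of suspension even for the libraries labelled attached, so the groups follow the condition label alone. The sources used here do not say how the introduced SPIB was expressed, nor whether the line is 1 clone. No RNA data were used here, so the activity of these genes and the markers of the cell type cannot be read from these data. A change in the share of cells with SPIB at a site and a change in SPIB per cell cannot be told apart.

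The filtered ChIP libraries held 20766909 tags in suspended cells and 21108364 tags in attached cells, and the inputs 21437074 and 15878452 tags. The authors' peak list held 9024 suspended and 462 attached peaks. The false discovery rate (FDR) that the authors' caller gave was at most 6.42% for every suspended peak, and 100% for 305 of the attached peaks. The files list called peaks only, so a listed gene without an attached peak has no attached tag count, and is not shown to be unbound. With 1 ChIP library per condition there is no replicate check and no test between conditions, and the 95% intervals (Poisson for tags, binomial for shares) reflect counting error only.

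In suspended cells 21 of the 47 genes had a SPIB peak, 44.7% (Clopper-Pearson 95% interval 30.2 to 59.9), where 28.6% of all protein-coding genes had one. Because the list was chosen with earlier results of these data known, this gap is a description and not a test. In attached cells 1 gene had a peak, KLF16, which is 2.13% (0.0539 to 11.3) of the list, where 1.86% of all protein-coding genes had one. The attached share is near that of all genes. Within 1 kb of a gene end, 14 of the 47 genes had a suspended peak (29.8%, 17.3 to 44.9), where 13.8% of protein-coding genes had one. None had an attached peak there, which allows a share of up to 6.38% (3 genes of 47; 7.55% by Clopper-Pearson), where 0.809% of protein-coding genes had one. The listed genes are mostly short, with a median span of 7.52 kb against 24.1 kb for all protein-coding genes, and long genes hold more peaks. Weighted to the spans of the list, the share of protein-coding genes with a suspended peak was 22.9%, or 10.8 of 47 genes.

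The gap between the list and all protein-coding genes was widest among the shortest genes. Of 16 listed genes under 5 kb, 8 had a suspended peak, where 16.0% of protein-coding genes of that span did. The count was 5 of 12 for spans of 5 to 10 kb (22.4% of protein-coding genes) and 6 of 13 for 10 to 30 kb (26.8%). For longer genes it was 2 of 5 (32.5%) and 0 of 1 (41.9%). At the stricter limit of an FDR of at most 5%, all 21 genes kept a suspended peak, where 24.2% of protein-coding genes had one, and KLF16 lost its attached peak, leaving 0 of 47 genes where 0.105% of protein-coding genes had one. At or above the list's median score, 18 genes did, where 18.0% of protein-coding genes had one.

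**Figure D1:**
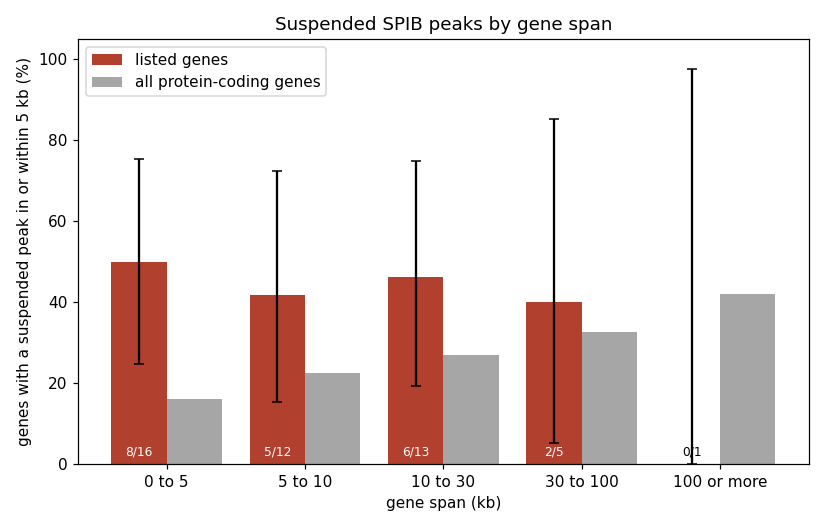
Share of genes (y axis, percent) with a suspended peak in the gene or within 5 kb, by gene span in kb (x axis), for the listed genes (red, bars with Clopper-Pearson 95% intervals and counts) and all protein-coding genes (grey). The red bar stands above the grey one in the 4 classes below 100 kb, and most clearly under 5 kb, with 8 of 16 genes against 16.0%.

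Stretches of DNA before gene starts are shown for EGR1, BTG2, FOSL2 and JUN, and for FOS because it had no peak. The first of these are among the 8 listed genes with a suspended summit within 1 kb of an annotated start. No stretch is shown for the others, JUND, MAFG, KLF16 and SRF. In the promoter windows described below, GGAA matches on either strand were 0 in JUND, 1 each in MAFG and KLF16, and 5 in SRF. Each is the 250 bases before the annotated start, from RefSeq on GRCh38.p14, read 5′ to 3′ on the gene's strand. Capitals mark each GGAA, the core that ETS proteins bind, and its reverse complement TTCC. The EGR1 stretch is chr5:138465229-138465478 (plus strand), BTG2 is chr1:203305269-203305518 (plus), FOSL2 is chr2:28392608-28392857 (plus), JUN is chr1:58784048-58784297 (minus) and FOS is chr14:75278578-75278827 (plus).
EGR1: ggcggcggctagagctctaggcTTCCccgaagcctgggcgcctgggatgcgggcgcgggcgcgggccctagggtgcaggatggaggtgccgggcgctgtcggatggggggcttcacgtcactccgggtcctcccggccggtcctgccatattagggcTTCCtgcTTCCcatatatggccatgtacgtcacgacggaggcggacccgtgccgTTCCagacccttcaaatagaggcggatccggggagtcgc
BTG2: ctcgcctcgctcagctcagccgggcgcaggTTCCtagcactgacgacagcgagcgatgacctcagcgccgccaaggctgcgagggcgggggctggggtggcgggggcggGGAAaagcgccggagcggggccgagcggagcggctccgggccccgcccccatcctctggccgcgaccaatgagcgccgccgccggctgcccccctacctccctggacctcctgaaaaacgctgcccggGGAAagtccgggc
FOSL2: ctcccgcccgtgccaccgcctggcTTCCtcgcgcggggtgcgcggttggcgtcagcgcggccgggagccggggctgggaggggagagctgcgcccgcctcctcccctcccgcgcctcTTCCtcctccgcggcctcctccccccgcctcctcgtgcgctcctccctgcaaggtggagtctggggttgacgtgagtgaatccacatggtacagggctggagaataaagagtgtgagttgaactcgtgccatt
JUN: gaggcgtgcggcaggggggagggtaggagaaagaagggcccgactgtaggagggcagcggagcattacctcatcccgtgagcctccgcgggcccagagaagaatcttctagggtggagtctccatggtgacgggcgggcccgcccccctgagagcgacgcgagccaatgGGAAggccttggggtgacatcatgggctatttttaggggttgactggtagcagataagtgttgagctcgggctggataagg
FOS: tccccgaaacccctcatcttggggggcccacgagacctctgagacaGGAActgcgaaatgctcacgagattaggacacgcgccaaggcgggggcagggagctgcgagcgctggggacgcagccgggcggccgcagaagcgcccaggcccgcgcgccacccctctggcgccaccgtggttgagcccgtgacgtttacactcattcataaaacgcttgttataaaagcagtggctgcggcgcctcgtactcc
All 250 bases of the EGR1, BTG2 and FOSL2 stretches lay under a called suspended peak, and 71 bases of the JUN stretch, those farthest from the start. The EGR1 stretch held 4 cores, all as TTCC, with 2 CArG boxes (ccatattagg and ccatatatgg), the element that SRF binds. A pair of cores, at gcTTCCtgcTTCC, lies between these boxes and shares its last base with the box nearer to the start. BTG2 held 3 cores, FOSL2 held 2, and JUN and FOS held 1 each. In JUN that core lay outside the called peak's part of the stretch. Bases farther than 250 before the start were not searched, so an element there, at FOS or another gene, would not be seen.

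A promoter window of 250 bases before to 50 after the most upstream annotated start was matched by symbol for 36 of the 47 genes, and 6 motifs were searched in it on both strands. The ETS core GGAA was in 33 of 36 windows (91.7%), against 95.2% of all protein-coding promoters. GAGGAA, the PU box to which SPIB and its relative PU.1 bind, was in 6 (16.7%), against 27.7%. Neither motif was more frequent here than over all promoters, and each GAGGAA match is also a GGAA match. The CArG box (CC, then 6 letters of A or T, then GG) was in 3 windows (8.33%), against 1.21% of all promoters. Those were the windows of EGR1 and SRF, which had a suspended peak, with 2 matches each, and of KLF7, which had none, with 1. A called EGR1 peak covered both of its boxes. The SRF peak had its summit 955 bp inside the start side of the gene, and is not shown to cover the SRF boxes. The cyclic AMP response element TGACGTCA was in 4 (11.1% against 2.56%), the AP-1 site TGANTCA in 1 (2.78% against 5.7%), and the GC box GGGCGG in 28 (77.8% against 58.3%). Matches of different motifs can overlap, as at EGR1. They describe letters and are no measured sites.

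The same windows were compared between listed genes with and without a suspended peak in the gene or within 5 kb. Such a peak need not cover the window. Of the 36 genes, 8 had a suspended summit within 1 kb of an annotated start, while the KLF9 summit was 24718 bp from its start. The shares therefore do not describe the motifs under the peaks. The ETS core was in 13 of 14 windows of genes with a peak and in 20 of 22 without, and the PU box in 3 of 14 and 3 of 22. Their GC content was 32.7 to 86.0% (median 70.2%) with a peak and 40.7 to 80.7% (median 65.5%) without, against a median of 62.7% over all protein-coding genes. Genes with a peak were also in regions with more peaks. The median number of other suspended peaks within 500 kb of the gene was 7 for listed genes with a peak and 4 for those without, and 6 and 3 among protein-coding genes. The part of GC content, regional peak number or DNA copies in the count of genes was not tested.

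Among the AP-1 core genes, 3 of 3 JUN genes (Clopper-Pearson 95% interval 29.2 to 100%) and 2 of 4 FOS genes (6.76 to 93.2%) had a suspended peak. The share of all protein-coding genes was 28.6%. The intervals are wide, and the difference was not tested. All 3 JUN genes had a suspended peak at a gene end (29.2 to 100%), where 13.8% of protein-coding genes did. JUN, whose protein can pair with itself or with FOS, had 17 tags (Poisson 95% interval 9.9 to 27.2) at chr1:58784227-58784472, at a fold of 11.62 over the local background. This is the highest fold of the listed genes' suspended peaks, with the summit 310 bp before the start. JUND, the most steadily expressed JUN gene in many cells, had 16 tags (9.15 to 26.0) at chr19:18281957-18282240, at a fold of 9.22 and 479 bp before its start. That summit also lay in MIR3188 and LOC124904652.

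JUNB, a partner of FOS that often restrains JUN, had 3 suspended peaks around a gene of 1830 bp. The peak at chr19:12793797-12794327 held 35 tags and that at chr19:12792914-12793252 held 20 tags, with summits 883 bp beyond and 224 bp before the far end of the gene. The peak upstream, at chr19:12789289-12789610, held 19 tags and lay in the neighbouring gene HOOK2, 2004 bp before the JUNB start. None of the JUNB summits was within 1 kb of its start, unlike those of JUN and JUND.

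Of the 4 FOS genes, FOSL2 had a peak at its start and FOSL1 a peak in a neighbour. FOSL2, an AP-1 subunit that outlasts the early burst of FOS, had 38 tags (26.9 to 52.2) at chr2:28392226-28392895, a fold of 8.49 and a summit 101 bp before the start, within the antisense gene FOSL2-AS1. The FOSL1 peak held 24 tags at chr11:65888096-65888426, 3811 bp from that gene, and its summit lay in FIBP. FOS and FOSB, the classical early subunits, had no peak in either condition. The nearest suspended summit was 146 kb from FOS and 10.6 kb from FOSB, and the nearest attached one 21.3 kb from FOSB.

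Among the partners of AP-1, suspended peaks were called at 2 of 3 small MAF genes (9.43 to 99.2%) and at none of the ATF and BATF genes (0 to 70.8%). Both intervals hold the 28.6% of all protein-coding genes, and the difference was not tested. ATF3, a stress-induced member, and BATF and BATF3, known from lymphoid and dendritic cells, had no peak in either condition. The small MAF proteins lack an activation domain and pair with NRF2 and BACH proteins. Of these MAFG had 71 suspended tags (55.5 to 89.6) at chr17:81926295-81927176, with an authors' FDR of 0% and a score that 2.74% of suspended peaks reach or pass. Its summit lay 857 bp inside from the annotated start. MAFK had 38 tags (26.9 to 52.2) at chr7:1530476-1531160, 328 bp inside its lower-coordinate end, and MAFF had none. MAFG therefore held the strongest call, by score, among the bZIP genes of the list.

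EGR1 was the 1 EGR gene of 4 (25.0%, 0.631 to 80.6) with suspended peaks, where 28.6% of protein-coding genes had one. Its peaks stood on either side of its start. EGR1 is a zinc finger factor induced by almost every growth signal. The peak before the start, at chr5:138464727-138465504, held 53 tags (39.7 to 69.3) at a fold of 7.08, with the summit at 297 bp upstream. The peak after it, at chr5:138465559-138465911, held 20 tags (12.2 to 30.9) at a fold of 5.78, with the summit at 241 bp downstream. Its authors' FDR was 6.31%. The called peaks were 54 bp apart. EGR2, EGR3 and EGR4 had none, although the nearest suspended summits were 7.68 kb from EGR2 and 6.18 kb from EGR4, the closest of all genes left outside the 5 kb limit. FOSL1, at 3811 bp, was the farthest gene inside it.

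Among the IER genes, a group named for early induction, IER2 had 32 tags (21.9 to 45.2) at chr19:13151494-13152079, 1267 bp after its start. IER3, known for cell survival, and IER5, an activator of heat shock factor, had no peak in either condition. The IER family thus had a suspended peak at 1 of 3 genes (33.3%, 0.84 to 90.6), where 28.6% of protein-coding genes had one.

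The KLF family had suspended peaks in 5 of 11 genes (45.5%, 16.7 to 76.6), where 28.6% of protein-coding genes had one. It carried 11 of the 36 suspended peaks of the list. KLF10, a factor induced by TGF-beta, had the most tags. Its peaks at chr8:102654425-102655563 and chr8:102655932-102657051 held 79 tags (62.5 to 98.5) and 69 tags (53.7 to 87.3), with summits 964 bp inside and 931 bp outside the higher-coordinate end. A further peak, at chr8:102657931-102658375, held 25 tags. The peaks outside the gene lay in LOC101927245, a neighbouring locus. The inner peak had the highest score of the listed genes' peaks, one that 2.56% of suspended peaks reach or pass.

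KLF3, a repressor, likewise had a peak on either side of 1 end. It had 20 tags (12.2 to 30.9) at chr4:38663687-38664045, 283 bp outside the lower-coordinate end and in KLF3-AS1, and 17 tags (9.9 to 27.2) at chr4:38664827-38665107, 795 bp inside. KLF6, an early response gene of wounding, had 39 tags (27.7 to 53.3) at chr10:3775981-3776541, 419 bp inside the far end of the gene, and 38 tags (26.9 to 52.2) at chr10:3786343-3787061, 1284 bp before the start. KLF9, a hormone-induced member, had 11 tags (5.49 to 19.7) at chr9:70389788-70389998, well inside the gene and 24718 bp from its start. KLF2, KLF4, KLF5, KLF7, KLF11 and KLF13 had no peak in either condition. These include KLF4 and KLF5, epithelial factors, and KLF2, an endothelial and lymphocyte factor.

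KLF16, a GC-box-binding repressor, was the gene of the list called in both conditions, and it had a site in common. The suspended peak at chr19:1858003-1858245 held 18 tags (10.7 to 28.4) in 243 bp, and the attached peak at chr19:1857900-1858222 held 25 tags (16.2 to 36.9) in 323 bp. Divided by filtered ChIP tags, the ratio of suspended to attached tags was 0.732 (exact binomial 95% interval 0.376 to 1.4), so no difference was detectable at this depth. Per bp of called peak the ratio was 0.973. The summits were 20 bp apart, inside the gene and about as far from its annotated start, at 5503 bp (suspended) and 5483 bp (attached). The authors' FDR was 3.21% for the suspended and 100% for the attached peak. Further suspended peaks of KLF16 held 26 tags at chr19:1859315-1859721 and 22 tags at chr19:1864260-1864595. The summit of the 22-tag peak lay 906 bp before the annotated start. No attached peak was called at these other KLF16 sites.

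The DUSP genes, the largest family of the list after the KLF genes, had a suspended peak at 1 gene. DUSP5, a nuclear phosphatase of ERK, had 16 tags (9.15 to 26.0) at chr10:110501285-110501558, 3485 bp inside the gene. DUSP1, DUSP2, DUSP4, DUSP6, DUSP8 and DUSP10, which act on ERK, JNK or p38, had no peak in either condition. That is 1 of 7 genes (14.3%, 0.361 to 57.9), an interval too wide to set the family apart from the 28.6% of protein-coding genes.

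The genes that act on mRNA decay and on the cell cycle were divided as well. Suspended peaks were called at 2 of 4 mRNA decay genes (6.76 to 93.2%) and at 1 of 2 BTG genes (1.26 to 98.7%). Both intervals hold the 28.6% of all protein-coding genes. ZFP36, which encodes tristetraprolin, a protein that binds AU-rich mRNAs, had 4 suspended peaks, the most of the list. They held 26 tags at chr19:39403467-39403921, 10 tags at chr19:39408549-39408677, 15 tags at chr19:39410235-39410443 and 21 tags at chr19:39410879-39411203. The 10-tag and 15-tag summits were 792 bp before and 929 bp beyond the far end of ZFP36, and the 26-tag summit lay nearer to MED29, 3210 bp before the ZFP36 start.

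ZFP36L2, a relative that acts in the same way, had 67 tags (51.9 to 85.1) at chr2:43219339-43220471, 26 tags (17.0 to 38.1) at chr2:43221800-43222088 and 42 tags (30.3 to 56.8) at chr2:43226991-43227672. All of its peaks lay outside the gene, and the 26-tag and 42-tag summits were 451 and 500 bp from opposite ends. ZFP36L1 and ZC3H12A, an RNA-cleaving enzyme of inflamed cells, had none. BTG2, an antiproliferative protein that recruits the mRNA deadenylase, had 32 tags (21.9 to 45.2) at chr1:203304973-203305655, at a fold of 4.47. Its summit was 18 bp after the start, the closest to an annotated start in the list, while its relative BTG1 had no peak in either condition.

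MYC, SRF and BHLHE40 all had suspended peaks, 3 of 3 genes (29.2 to 100%), where 28.6% of protein-coding genes did. MYC, the growth-promoting factor, had 37 tags (26.1 to 51.0) at chr8:127734887-127735393 and 51 tags (38.0 to 67.1) at chr8:127735608-127736365. These summits stood 184 bp outside and 563 bp inside its lower-coordinate end. SRF, which binds the CArG boxes of many immediate early promoters, had 47 tags (34.5 to 62.5) at chr6:43172048-43172767, 955 bp inside its start side and 172 bp before a further annotated start. BHLHE40, a repressor of clock and hypoxia genes, had 17 tags (9.9 to 27.2) at chr3:4977619-4977891, 1646 bp before its start and in BHLHE40-AS1.

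**Figure D2:**
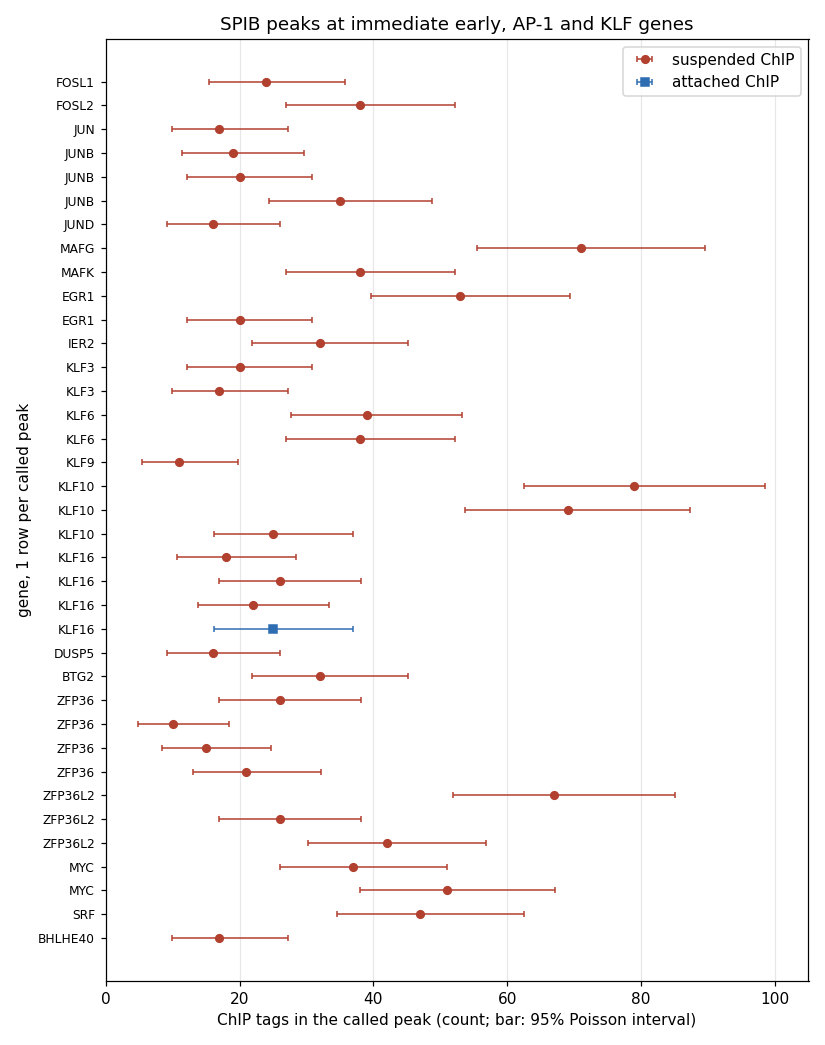
ChIP tags in each called peak of the listed genes (x axis, count, with Poisson 95% intervals), 1 row per peak (y axis). Suspended peaks are red circles and the attached peak is a blue square. Tags run from 10 at ZFP36 to 79 at KLF10, and the only attached peak is that of KLF16, with 25 tags.

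Over the list, 36 suspended peaks were counted for 21 genes, and no peak was counted for more than 1 of them. For 33 peaks the listed gene was the nearest protein-coding gene, and the exceptions were the FOSL1 peak in FIBP, the JUNB peak in HOOK2 and the ZFP36 peak near MED29. Of these genes 9 had 2 or more suspended peaks (42.9%), where 29.1% of protein-coding genes with a peak did, and 5 had 3 or more (23.8%, where 8.15% did). These were KLF10, KLF16, JUNB, ZFP36 and ZFP36L2. The larger number stands beside short spans, since listed genes with a peak had a median span of 7.52 kb against 37.0 kb for protein-coding genes with a peak.

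A suspended peak on either side of the same gene end, within 1 kb, was found for 6 of the 14 listed genes with a peak at an end (42.9%), where 6.0% of such protein-coding genes had this. The genes were EGR1, MYC, KLF3, KLF10, JUNB and ZFP36. At EGR1 this end was the start and at JUNB and ZFP36 the far end. Summits of a pair were 538 bp apart at EGR1, 747 bp at MYC and up to 1895 bp at KLF10, and the called peaks 54 bp (EGR1) to 1557 bp (ZFP36) apart. Whether such a pair is 1 enriched region that the caller split was not tested. The weaker peak of the pair, by score, had an authors' FDR of 6.31% at EGR1 and JUNB and 5.96% at ZFP36. At an FDR of at most 5% those pairs are lost, and MYC, KLF3 and KLF10 keep theirs. The share of protein-coding genes with a pair at that limit was not counted. Where the promoter table gave a start, 8 of 36 listed genes had a suspended summit within 1 kb of one (22.2%), where 14.7% of protein-coding genes did, and none had an attached summit there, where 0.77% of protein-coding genes did. The genes with a suspended summit there were FOSL2, JUN, JUND, MAFG, EGR1, KLF16, BTG2 and SRF.

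**Figure D3:**
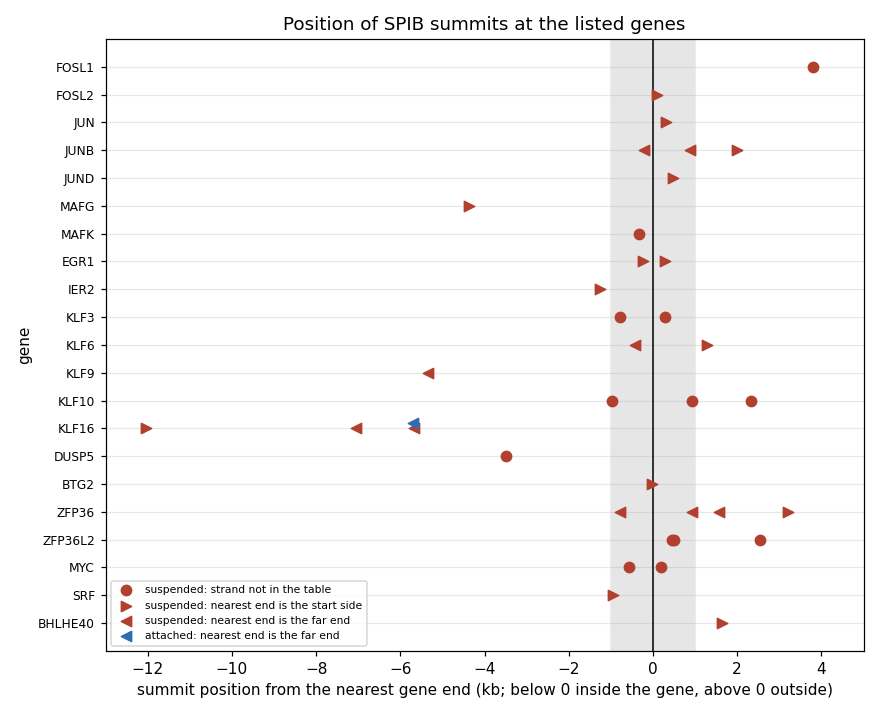
Summit position from the nearest gene end in kb (x axis; below 0 inside the gene, above 0 outside) for each listed gene with a peak (y axis). Red marks are suspended and blue is attached, right-pointing triangles mark the start side, left-pointing ones the far end, circles genes whose strand was not in the promoter table, and the grey band is 1 kb on either side. The 14 genes with a summit in the band include EGR1, MYC, KLF3, KLF10, JUNB and ZFP36, with a summit on each side of 0.

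The suspended peaks of the listed genes were wide and of modest fold. Their width was 129 to 1139 bp with a median of 426 bp, against 252 bp over all suspended peaks, and they held 10 to 79 tags with a median of 26, against 15. The authors' fold had a median of 6.32, against 9.1, and 2 of 36 peaks (5.56%) had a fold of 10 or more, at JUN and KLF9, where 39.9% of all suspended peaks did. Gene-end peaks in general had lower folds. At gene ends the median fold was 6.84 for listed genes, against 7.26 for protein-coding genes, and 4.76% against 19.3% had a fold of 10 or more. The 15 peaks of listed genes away from a gene end had a median fold of 6.2. Suspended peaks in or within 5 kb of any protein-coding gene, gene-end peaks included, had a median fold of 8.67 and a median width of 279 bp. Of these, 34.3% had a fold of 10 or more and 17.7% were 500 bp or wider. The part of gene-end position in the modest fold was not tested. At 500 bp or wider were 16 of 36 peaks (44.4%), where 14.5% of all suspended peaks were. Peaks at gene ends were wider in general. At gene ends the 21 peaks of listed genes had a median width of 531 bp, against 369 bp for protein-coding genes, and 57.1% against 29.3% were 500 bp or wider. Tag density was closer, at a median of 6.53 against 6.13 tags per 100 bp. By score, 26 of the 36 peaks were in the upper 50% of the suspended list and 2 in its top 5%, those of KLF10 and MAFG.

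**Figure D4:**
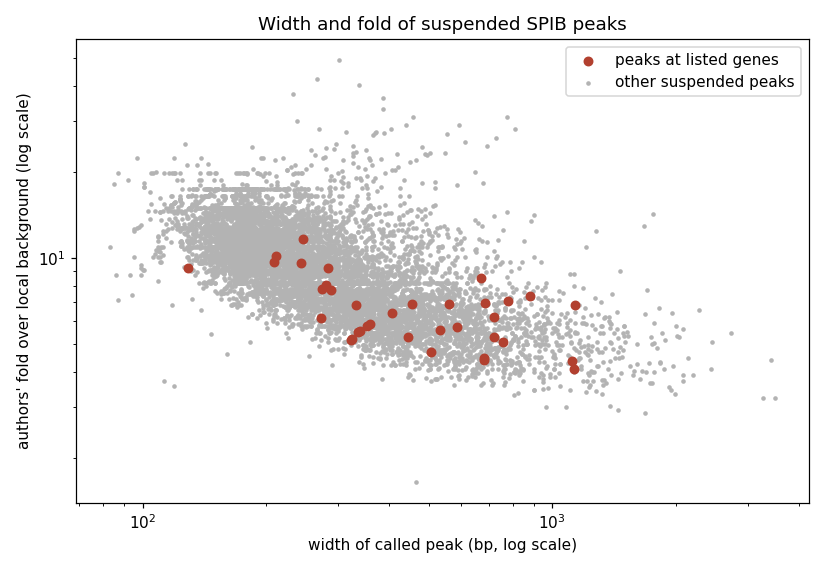
Width of the called peak in bp (x axis, log scale) and the authors' fold over the local background (y axis, log scale) for each suspended peak, with the 36 peaks at listed genes in red and the others in grey. The red points lie mostly at widths above 252 bp and folds below 10.

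The list holds 7 genes on chromosome 19, of which JUNB, JUND, IER2, KLF16 and ZFP36 had a suspended peak (71.4%), where 28.7% of protein-coding genes of that chromosome did. On the other chromosomes 16 of 40 listed genes did (40.0%), where 28.6% of protein-coding genes did. The intervals, 29.0 to 96.3% on chromosome 19 and 24.9 to 56.7% elsewhere, are wide, and the interval elsewhere holds the 28.6% of protein-coding genes.

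Related genes outside the list were counted in the same way. Of 42 other immediate early and growth factor response genes, 13 had a suspended peak (31.0%, 17.6 to 47.1) and none an attached one. Peaks at a gene end were found at CSRNP1 (44 tags, an early nuclear protein), GADD45B (24 tags, a stress sensor that acts on p38 and JNK), ID3 (33 tags, an inhibitor of basic helix-loop-helix factors), SOCS3 (51 tags, an inhibitor of cytokine receptors) and SPRY4 (52 tags, an inhibitor of receptor tyrosine kinase signalling). Further from an end lay peaks of SPRED2 (fold 12.94), NR4A1 (10.14), NAB2 (8.96, with the summit in NEMP1), a corepressor of EGR1, and NFKBIZ (7.45). The NFKBIZ summit was nevertheless 283 bp from an annotated start. A suspended peak was also called at 4 further genes.

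Of 21 other genes of the AP-1 and wider bZIP family, 8 had a suspended peak (38.1%, 18.1 to 61.6). Those at a gene end were in ATF1 (14 tags), ATF7 (20 tags), CREB1 (13 tags) and NFE2L1 (90 tags in 1224 bp). Away from the ends of the span lay peaks of CREB5 (fold 13.18), ATF6 (12.42), JDP2 (8.06) and BACH2 (7.7). The JDP2 summits were nevertheless 34 and 243 bp from annotated starts. Of 15 other KLF and SP genes, 4 had one (26.7%, 7.79 to 55.1), none of them at a gene end, with folds of 17.59 at SP7, 13.65 at KLF1 (nearer to DNASE2), 8.77 at SP9 and 8.37 at KLF15. The SP7 peak, 2105 bp outside the gene with 38 tags, had the highest fold of all these suspended peaks.

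Of 24 other phosphatase and MAP kinase pathway genes, 8 had a suspended peak (33.3%, 15.6 to 55.3). An attached peak was called at 2 (8.33%, 1.03 to 27.0), where 1.86% of protein-coding genes had one. Gene-end peaks were found at DUSP16 (92 tags), DUSP18 (27 tags, nearer to SLC35E4), DUSP19 (13 tags), MAPK14 (32 and 18 tags), which encodes p38 alpha, and ELK4 (16 tags), an ETS partner of SRF. Elsewhere lay the peaks of RPS6KA1 (fold 11.7) and of ELK3 (11.6), another ETS partner of SRF. Also with a suspended peak, MAPK7, which encodes the kinase ERK5, is named after its values were seen: its peak held 135 tags in 1828 bp, 303 bp from an annotated start. The attached peaks, at RPS6KA3 (14 tags) and MRTFB (8 tags), a coactivator of SRF, both had an authors' FDR of 100%. For suspended peaks within 5 kb, the intervals of these 4 related lists hold the 28.6% of all protein-coding genes. They also hold the 44.7% of the 47 listed genes. Suspended gene-end peaks were at 5 of 42 immediate early genes (3.98 to 25.6%) and 0 of 15 KLF and SP genes (0 to 21.8%). They were at 4 of 21 bZIP genes (5.45 to 41.9%) and 5 of 24 pathway genes (7.13 to 42.2%). All 4 intervals hold the 13.8% of protein-coding genes. Those of the immediate early and the KLF and SP genes lie below the listed genes' 29.8%, and the others hold it. No difference between the lists was tested.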

How the data were processed

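The authors called peaks with MACS 1.4.2, per the file headers, for suspended and attached ChIP libraries apart, each with its matching input, at a p cutoff of 1e-05 and keeping 1 tag per position. The modelled fragment length was 63 bp (suspended) and 58 bp (attached), close to the 50 bp tag size. The build is hg38, per the submitters' processing notes, and no aligner is named in the sources used here. The deposited tags are raw counts per called peak, and fold is the authors' ratio of ChIP over local background. The deposited score is read as -10 log10 of the caller's p-value, its column name having been lost, and the authors' FDR is a percent from calling with ChIP and input exchanged.

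Genes, spans and promoters came from RefSeq tables of GRCh38.p14, the assembly that hg38 names. All 47 genes were found, and promoters for 36. Gene ends are the ends of the span. Counts and intervals were computed with Python 3.11.15 (SciPy 1.17.1, numpy 2.4.6, pandas 2.3.3), figures were drawn with matplotlib 3.10.9, and the counting was tested on simulated data. Peaks of the lists were shared where they overlapped by at least 1 bp. The genes and lists were chosen with earlier results of these data known. Every listed gene is named. Of the related lists, genes with a gene-end peak and up to 4 more by fold are named. Alternatives concerned the flank, the limit on peaks, the gene-end window, the overlap, the tag scaling, the motif strand and the span classes.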

Additional observations from a re-analysis of the deposited data

How the results depend on the processing

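The count of genes with a suspended peak (21 of 47) was 15 with no flank, 19 with 1 kb and 24 with 10 kb. The shares of all protein-coding genes were then 20.3%, 25.0% and 32.2%. The count was 21 for any overlap of the called peak, where 28.7% of protein-coding genes had one. Where a peak counted only for its nearest protein-coding gene it was 20, against 24.0% of protein-coding genes. Gene-end counts (14) were 11 within 500 bp and 16 within 2000 bp, where 10.1% and 16.7% of protein-coding genes had a peak. Of 35 alternative values, 31 stayed within 1.5 times the reported count or within its interval. The others were 12 of 30 genes where no other protein-coding gene lay in the span or flank (24.1% of such protein-coding genes had a peak; an alternative chosen after seeing the data, with fewer genes), 8 of 36 at an annotated start (fewer genes), 0 attached genes at an FDR of at most 5%, and 3 windows with the PU box on the forward strand only. Span classes with other bounds gave a weighted share of 24.0%. The KLF16 tag ratio was 0.73 by total tags. No paired analysis was possible because each condition had 1 ChIP library. Depth limits single peaks: a peak of 10 tags has an interval of 4.8 to 18.4.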
